A study of Mus musculus with 28 samples.

Results

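The 7 genes described here are genes that mast cells are known for: Cma1, Mcpt4, Tpsb2 and Cpa3, which encode proteases of the mast cell granule, Fcer1a and Ms4a2, which encode subunits of the high-affinity IgE receptor, and Hdc, which encodes the enzyme that makes histamine. They were taken by name from the 29068 genes of the count table, and all 7 were listed there and passed the filter on low counts, which 18107 genes passed. Total RNA was sequenced from skin at a full-thickness excisional punch wound on the back of C57BL/6J (MLKL+/+) mice, left to heal naturally, in 28 libraries, with 4 libraries for each of 7 days (0, 3, 5, 7, 10, 12 and 14). All animals were 8 weeks old and wild type, and animals of both sexes were used in the study. The samples held the whole wound site with scab and epithelial margins, so they are mixtures of many cell types. Day 0 is the earliest group in the labels, and it serves here as the reference. The study's text calls its earliest time point day 1 and defines it as the day of injury. The labels do not say that the 4 libraries of a day came from separate animals, so p-values measure the spread between these libraries, which may be technical.

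Mast cells are long-lived cells of the dermis that depend on the receptor KIT and store histamine, heparin and large amounts of protease in granules. Cross-linking of IgE on their high-affinity receptor, a complex of an alpha chain that binds IgE (Fcer1a), a signal-amplifying beta chain (Ms4a2) and a gamma chain shared with other Fc receptors (Fcer1g), releases these stores. The mast cells of skin are of the connective tissue type, which hold the chymase-family protease of Mcpt4, the related protease of Cma1 (mouse mast cell protease 5), the tryptase of Tpsb2 and the carboxypeptidase of Cpa3. Several of the 7 are not confined to mast cells: basophils also use Fcer1a, Ms4a2, Cpa3 and Hdc, and neutrophils and their precursors also use Hdc.

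The 4 protease genes were at their lowest at day 14 and were also called below day 0 at days 3 and 10. Between these days Cma1, Tpsb2 and Cpa3 overlapped day 0, while Mcpt4 stayed below it until day 10. At day 3 Cpa3 overlapped day 0 in log2 CPM (counts scaled to library total and TMM factor), though not in FPKM. Its call there was lost without libraries 2 and 3 of day 0 (adjusted p = 0.188, edgeR). Ms4a2, at a much lower level per length, was called below day 0 at days 3, 5, 10 and 14, and the first 2 of these calls were lost without libraries 2 and 3 of day 0. Fcer1a and Hdc went the other way early in healing: Fcer1a was 8.76-fold and Hdc 15.2-fold higher at day 5 than at day 0. Levels are given as deposited FPKM, scaled to each library total, and differences as log2 fold changes from edgeR, which also corrects for composition. By the joint test over the 7 days (edgeR's quasi-likelihood test on counts, Benjamini-Hochberg adjustment over all genes tested), all 7 genes varied with time, as did 89.5% of all genes tested. The joint F was 345 for Hdc, which ranked 121 among 18107 genes, 118 for Fcer1a, between 49.8 and 69.5 for the proteases and 19.3 for Ms4a2. The highest adjusted p of the 7 in this edgeR test was 3.71e-08, for Ms4a2.

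The genes lie on 6 chromosomes (GENCODE M21 on GRCm38, the assembly of mm10). Cma1 (chromosome 14, 55941451 to 55944675, minus strand) and Mcpt4 (chromosome 14, 56059629 to 56062313, minus strand) share the chymase locus, 114953 bases apart with 4 protein-coding genes between them. Tpsb2 is on chromosome 17 (25366305 to 25369098, plus strand), Cpa3 on chromosome 3 (20215620 to 20242181, minus strand), Fcer1a on chromosome 1 (173221284 to 173227214, minus strand), Ms4a2 on chromosome 19 (11615523 to 11623719, minus strand) and Hdc on chromosome 2 (126593667 to 126619299, minus strand). How reads matching several genes were counted is not given in the sources used here. The annotated exons of Cma1 and Mcpt4 shared 10.6% and 12.2% of their runs of 31 bases with other genes, against 3.96% for Ms4a2, 0.557% for Tpsb2, 0.424% for Hdc and none for Cpa3 and Fcer1a, so the counts of Cma1 and Mcpt4 are the less certain ones. Cma2, the gene that shares most with Mcpt4, had 0 to 27 counts in any library.

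The promoters are shown because GATA factors, which bind the letters GATAA, are known regulators of mast cell genes, and because Hdc moved apart from the protease genes. In the 250 bases before the RefSeq start (GRCm38.p6), GATAA or its reverse complement TTATC was present in 5 of the 6 promoters matched (Cma1, Cpa3, Fcer1a, Mcpt4 and Ms4a2) and absent from that of Hdc, while 22.6% of 32851 mouse promoters of the same length held it. The RefSeq start used for Hdc lies inside the gene as GENCODE annotates it, so this absence applies to that start and no other start was examined. The E-box letters CATGTG or CACGTG, searched on both strands, were present in 1 of the 6 (Fcer1a) and in 17.6% of all promoters. Those of Mcpt4 (chr14:56062311-56062560), Cpa3 (chr3:20242182-20242431), Fcer1a (chr1:173227230-173227479) and Hdc (chr2:126618679-126618928) read as follows, each on the minus strand from 5′ to 3′ up to the base before the start, with the GATAA or TTATC letters in capitals.
Mcpt4: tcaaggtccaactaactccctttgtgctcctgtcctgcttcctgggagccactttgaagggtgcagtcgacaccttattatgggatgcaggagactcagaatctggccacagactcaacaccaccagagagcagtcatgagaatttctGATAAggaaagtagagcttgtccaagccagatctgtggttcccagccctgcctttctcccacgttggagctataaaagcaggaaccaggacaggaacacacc
Cpa3: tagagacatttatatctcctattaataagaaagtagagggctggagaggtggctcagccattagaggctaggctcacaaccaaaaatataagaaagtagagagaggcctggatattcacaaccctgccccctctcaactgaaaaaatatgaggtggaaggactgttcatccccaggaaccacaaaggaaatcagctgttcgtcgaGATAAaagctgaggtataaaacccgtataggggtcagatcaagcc
Fcer1a: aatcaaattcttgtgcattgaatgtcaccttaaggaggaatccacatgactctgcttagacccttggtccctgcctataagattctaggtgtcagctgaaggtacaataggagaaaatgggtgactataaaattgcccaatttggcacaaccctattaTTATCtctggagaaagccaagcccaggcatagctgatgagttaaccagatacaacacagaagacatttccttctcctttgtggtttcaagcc
Hdc: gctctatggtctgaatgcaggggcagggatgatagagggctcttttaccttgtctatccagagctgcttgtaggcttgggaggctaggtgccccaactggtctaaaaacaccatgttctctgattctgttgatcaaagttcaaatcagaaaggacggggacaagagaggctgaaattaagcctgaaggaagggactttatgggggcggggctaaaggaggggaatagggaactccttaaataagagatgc
The letters stood 102 bases before the start in Mcpt4, 45 in Cpa3, 92 in Fcer1a and 194 in Cma1, and at 3 places (224, 37 and 10 bases) in Ms4a2. A match of letters is a description of the sequence, and no binding was measured.

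Each library held between 36706513 and 40655764 counts. The 4 libraries of day 0 differed most among themselves, with a biological coefficient of variation of 26.4% against 5.70% to 10.8% on the later days. The edgeR test estimates the spread of each gene over all 7 days together, so it can understate the spread at day 0. Libraries 1 and 4 of day 0 stood apart from libraries 2 and 3: the summed CPM (counts scaled to library total and TMM factor) of 4 skeletal muscle markers was 24190 and 25374 in the first pair against 15000.2 and 15310.2 in the other. That of 5 dermal fibroblast markers was 17746 and 10035 against 41248 and 39829. Differences against day 0 of the 7 genes and of the lists were therefore also computed without each pair, an alternative chosen after the data were seen. They are given where this ended a printed call or moved a called value by over 1.5 times as a fold. Smaller shifts are not all given. For example, Tpsb2 at day 3 was at -0.30 and Ms4a2 at day 10 at -0.58 on the log2 scale without libraries 2 and 3. The muscle markers also set day 0 apart from the later days. All 4 were called lower than day 0 on every later day, against 24.8% to 34.8% of all genes. Their median log2 differences lay between -1.56 and -2.43. The part of this in the differences of the 7 genes against day 0 was not tested. The labelled tissue carried its markers: keratinocyte markers (Krt5, Krt14, Krt1, Krt10 and Trp63) summed to between 3723 and 8015 CPM in every library.

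**Figure D1:**
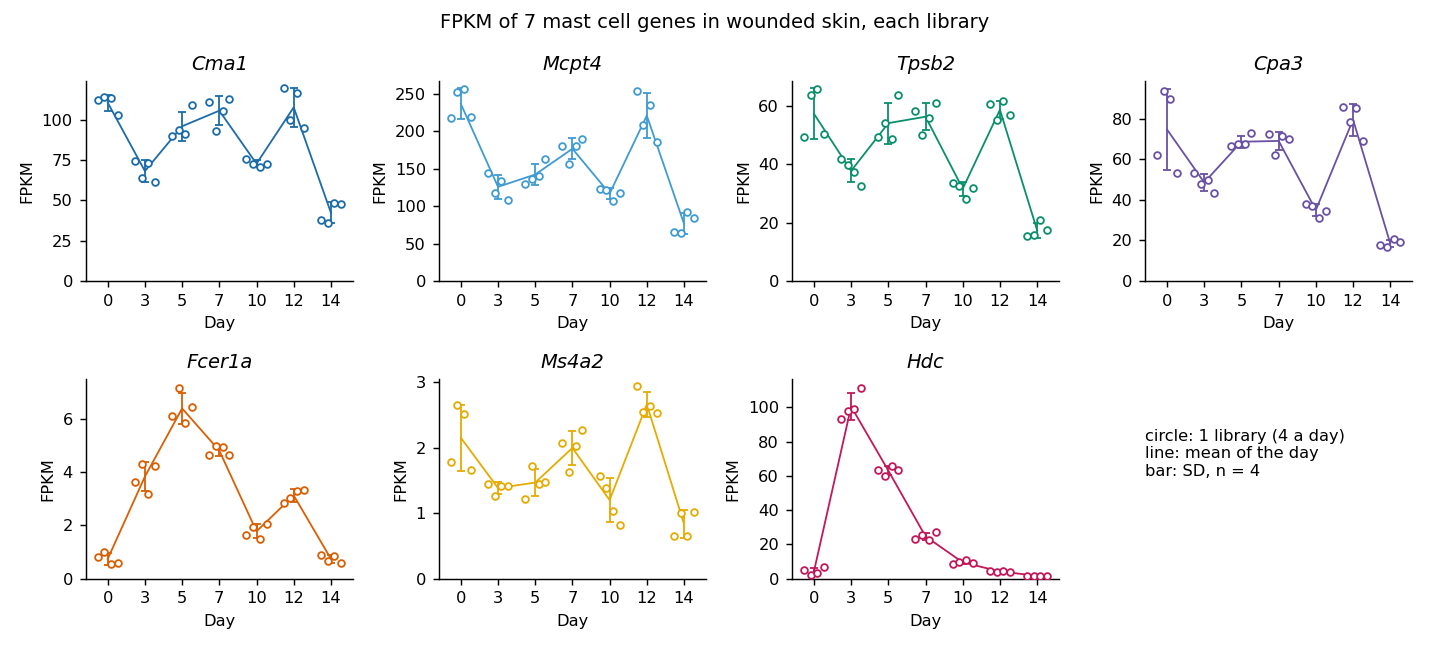
FPKM (fragments scaled to gene length and library total) of the 7 genes on each day, days spaced evenly; circles are libraries, lines join the day means and bars are SD, n = 4. Cma1, Mcpt4, Tpsb2, Cpa3 and Ms4a2 dip at days 3, 10 and 14, Fcer1a peaks at day 5 with a mean of 6.38, and Hdc peaks at day 3 with a mean of 100.4.

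At day 0 the levels per length spanned a wide range. Mcpt4 had the highest of the 7, 237 ± 20.8 FPKM (SD, n = 4), followed by Cma1 with 111 ± 5.01, Cpa3 with 74.6 ± 19.997, Tpsb2 with 57.3 ± 8.65, Hdc with 4.28 ± 1.89, Ms4a2 with 2.15 ± 0.50 and Fcer1a with 0.74 ± 0.21. The libraries of Cpa3 and Tpsb2 overlapped, as did those of Hdc and Ms4a2, and the other neighbours in this order did not. Fcer1a rested on 22 to 42 counts a library at day 0, so its precision there was limited by counting. On day 3 the order had changed: Hdc (93.2 to 111 FPKM) overlapped Mcpt4 (108 to 144 FPKM) and stood above Cma1, Cpa3 and Tpsb2 in every library.

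Cpa3 encodes carboxypeptidase A3, an exopeptidase stored with heparin in the granule. Its 4 libraries read 61.8, 93.6, 89.6 and 53.4 FPKM at day 0, 53.3, 47.8, 49.6 and 43.5 at day 3, and 66.4, 67.7, 67.3 and 73.0 at day 5. On day 7 they read 72.6, 62.3, 71.3 and 69.9, at day 10 37.8, 36.9, 30.9 and 34.3, at day 12 85.9, 78.1, 85.1 and 68.8, and at day 14 17.6, 16.7, 20.7 and 19.2. The day 10 and day 14 libraries lay below all libraries of days 0, 5, 7 and 12, and those of day 14 lay below those of day 10. Against day 0, Cpa3 fell by 1.15 ± 0.12 on the log2 scale (SE) at day 10 (adjusted p = 1.02e-08, edgeR) and by 2.13 ± 0.13 at day 14, a 4.38-fold lower level by edgeR (adjusted p = 6.14e-14, edgeR). On day 3 it was called lower by 0.56 on the log2 scale (edgeR, adjusted p = 0.000193), but the log2 CPM of the groups overlapped and the exact two-sided permutation test gave p = 0.0571. This call rested on libraries 2 and 3 of day 0: without them the day 3 difference was -0.15 (adjusted p = 0.188, edgeR). The differences at days 5, 7 and 12 did not pass the test with all 4 libraries of day 0. They were 0.30, 0.25 and 0.33 without libraries 2 and 3 and -0.37, -0.41 and -0.34 without libraries 1 and 4, all past the threshold of 0.05 in edgeR.

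Mcpt4 encodes mouse mast cell protease 4, the main chymotrypsin-like enzyme of skin mast cells. Its libraries read 218, 253, 257 and 219 FPKM at day 0, 144, 118, 134 and 108 at day 3, 123, 121, 107 and 117 at day 10, and 66.1, 64.3, 92.2 and 84.2 at day 14. These 3 days did not overlap day 0. Of the proteases, Mcpt4 passed the test on the most days: it fell by 0.86 ± 0.11 on the log2 scale at day 3, 0.69 ± 0.11 at day 5, 0.43 ± 0.11 at day 7 and 1.07 ± 0.11 at day 10 (adjusted p of 0.00239 or less in edgeR). Its day 12 libraries, 186 to 254 FPKM, overlapped those of day 0 (-0.24 ± 0.11, adjusted p = 0.0774 in edgeR). This difference passed the test without libraries 1 and 4 of day 0 (-0.34, adjusted p = 0.0213 in edgeR) and without library 1 of day 12 (-0.33, adjusted p = 0.0257). On day 14 it was 3.36-fold lower by edgeR than at day 0. Cma1 ranged from 103 to 114 FPKM at day 0, 61.1 to 74.5 at day 3, 70.6 to 75.6 at day 10 and 35.9 to 48.4 at day 14. It passed the test at the last 3 of these days, with log2 differences of -0.64 ± 0.10, -0.66 ± 0.10 and -1.51 ± 0.10. It also passed at day 5 without library 4 of day 5 (-0.24, adjusted p = 0.0366 in edgeR) and at day 12 without library 1 of day 12 (-0.25, adjusted p = 0.0479 in edgeR). Its highest mean was at day 0 and its libraries of days 0, 7, 5 and 12, in that order of mean log2 CPM, overlapped their neighbours. On the scale of CPM with the TMM factor, the highest day mean of Cma1 was 2.84 times the lowest, against 4.38 times for Cpa3.

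Tpsb2 encodes a tryptase that forms tetramers on heparin. It read 49.4, 63.6, 65.8 and 50.2 FPKM at day 0 and 15.3, 15.7, 21.1 and 17.6 FPKM at day 14, a 3.58-fold difference by edgeR without overlap (log2 difference -1.84 ± 0.11, adjusted p = 7.82e-14 in edgeR). On day 10 it ranged from 28.2 to 33.6 FPKM (-0.91 ± 0.11, adjusted p = 5.79e-08 in edgeR) and at day 3 from 32.4 to 41.6 (-0.55 ± 0.11, adjusted p = 6.18e-05 in edgeR). Days 5, 7 and 12 overlapped day 0, with log2 differences of -0.04, -0.03 and -0.11 that did not pass the test; the sign of the last turned to 0.03 when libraries were scaled to total counts alone. Without libraries 1 and 4 of day 0 the day 12 difference was -0.28 and passed (adjusted p = 0.0309 in edgeR).

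The beta and alpha chains of the IgE receptor parted. Ms4a2, the beta chain, read 1.79, 2.65, 2.52 and 1.66 FPKM at day 0 and 2.94, 2.55, 2.64 and 2.53 at day 12, the highest of its day means, which did not differ beyond their spread (log2 difference 0.16 ± 0.17, adjusted p = 0.462 in edgeR). It was called higher at day 12 without libraries 2 and 3 of day 0 (0.50, adjusted p = 0.0402 in edgeR) and was at -0.093 without libraries 1 and 4. It passed the test at day 10 (0.815 to 1.57 FPKM, -0.90 ± 0.18) and day 14 (0.655 to 1.03 FPKM, -1.49 ± 0.18), without overlap with day 0. It was also called lower at day 3 (-0.58 ± 0.18, adjusted p = 0.00529 in edgeR) and day 5 (-0.51 ± 0.18, adjusted p = 0.0142 in edgeR). Neither call held without libraries 2 and 3 of day 0 (-0.21 and -0.18, adjusted p = 0.35 and 0.443 in edgeR). The day 5 call was also lost without library 2 of day 0 alone (adjusted p = 0.0633 in edgeR) or library 1 of day 5 (adjusted p = 0.0552), and its groups overlapped.

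Fcer1a, the alpha chain, read 0.82, 1.01, 0.568 and 0.581 FPKM at day 0, 3.61, 4.30, 3.17 and 4.23 at day 3, 6.08, 7.16, 5.84 and 6.44 at day 5, and 4.64, 4.97, 4.95 and 4.63 at day 7. It then read 1.65, 1.94, 1.47 and 2.04 at day 10, 2.85, 3.01, 3.30 and 3.32 at day 12, and 0.873, 0.651, 0.857 and 0.606 at day 14. All libraries of days 3 to 12 lay above all of day 0, and day 14 overlapped day 0. Against day 0, Fcer1a rose by 2.41 ± 0.17 on the log2 scale at day 3, 3.13 ± 0.17 at day 5, 2.68 ± 0.17 at day 7, 1.19 ± 0.17 at day 10 and 1.92 ± 0.17 at day 12 (adjusted p of 1.8e-06 or less in edgeR). These calls held without either pair of day 0 libraries. Its dip at day 10 fell on the same day as that of the proteases, since day 12 was 0.72 ± 0.15 above day 10 (adjusted p = 0.00043 in edgeR). Per length, the alpha chain lay below the beta chain within every library of day 0 and above it within every library of days 3, 5, 7 and 10. At day 12 it lay above in libraries 2, 3 and 4 and below in library 1. At day 14 it lay above in libraries 1 and 3 and below in libraries 2 and 4. The 2 ranges overlapped at days 10, 12 and 14.

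The gamma chain, Fcer1g, which macrophages and other cells with Fc receptors also use, had a mean of 172 FPKM at day 0, 480.3 at day 3, 338 at day 5 and 65.3 at day 14. Of the basophil markers (Mcpt8, Prss34, Cd200r3 and Il4, 3 of 4 tested), 1 was higher at day 3, 2 at day 5, 2 at day 7, 1 at day 10 and none at day 12 by edgeR's adjusted p, against 31.8%, 29%, 25.6%, 23.5% and 21.7% of all genes. At day 10, 1 was lower, and at day 14, 2 were lower, against 26.9% and 34.5% of all genes. Their summed CPM ranged from 1.69 to 3.60 at day 0, 5.44 to 6.69 at day 3, 3.63 to 4.14 at day 5, 5.40 to 6.37 at day 7, 1.23 to 2.21 at day 10, 1.66 to 2.40 at day 12 and 0.28 to 0.86 at day 14. Mcpt8, the basophil protease, had 1 to 3 counts a library at day 0, 89 to 123 at day 3, 27 to 49 at day 5, 84 to 97 at day 7, 0 to 6 at day 12 and 0 or 1 at day 14. Without libraries 1 and 4 of day 0, where all 4 basophil markers passed the filter on low counts, 1 was lower at days 3 and 5 and 2 at day 12, and without libraries 2 and 3 the counts higher at days 3, 5 and 7 were 2, 1 and 3 and none was lower at day 10. Of 4 dendritic and Langerhans cell markers, 2 were higher and 2 lower at days 3 and 5, 1 was higher and 2 lower at day 7, and 1 was higher and 3 lower at days 10, 12 and 14. Over all genes 31.8%, 29%, 25.6%, 23.5%, 21.7% and 28.2% were higher on these 6 days, and 34.8%, 30.6%, 24.8%, 26.9%, 25.6% and 34.5% lower. At day 5 only 1 of the dendritic markers was higher without either pair of day 0 libraries, and at day 3 only 1 was lower without libraries 2 and 3. Their sum ranged from 833 to 1361 CPM at day 0 and from 656 to 762 CPM at day 5. The part of basophils and dendritic cells in the rise of Fcer1a was not tested.

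**Figure D2:**
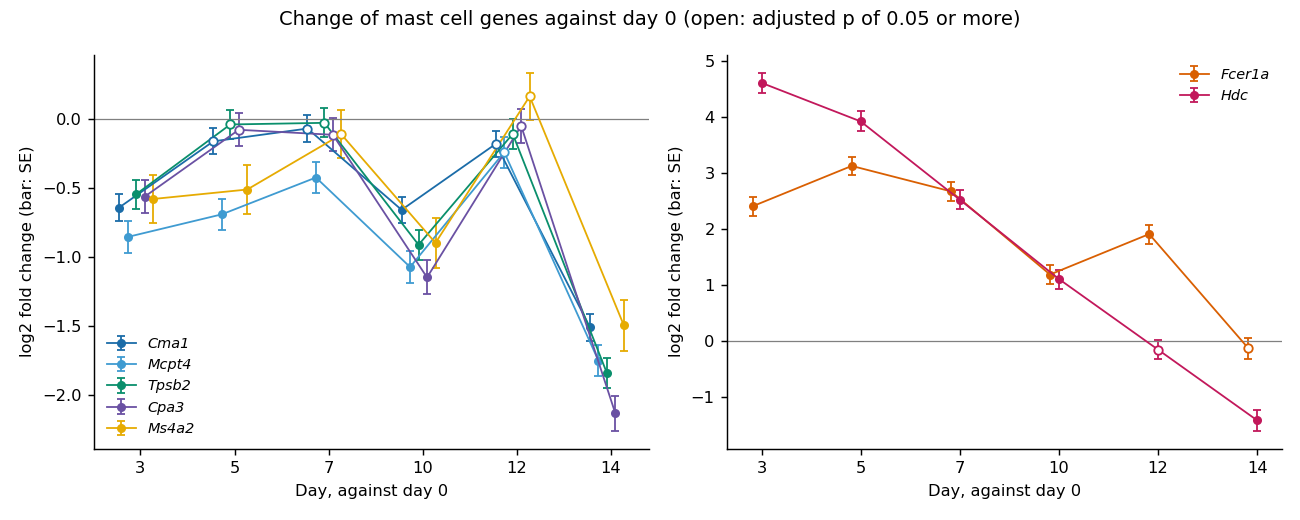
Log2 fold change against day 0 with its SE for the 7 genes at days 3 to 14, from edgeR on all 28 libraries; open circles did not pass an adjusted p of 0.05. The proteases and Ms4a2 lie below 0 at days 3, 10 and 14, down to -2.13 for Cpa3, while Hdc starts at 4.61 and declines at each step and Fcer1a is highest at day 5 at 3.13.

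Hdc, histidine decarboxylase, had the widest range of the 7 genes, 65.0-fold between the highest and the lowest day mean of CPM (scaled with the TMM factor). Its libraries read 4.91, 2.45, 3.11 and 6.66 FPKM at day 0, 93.2, 98.1, 99.3 and 111 at day 3, 63.2, 59.7, 66.0 and 63.3 at day 5, and 23.2, 25.5, 22.7 and 27.3 at day 7. They then read 8.57, 9.53, 10.8 and 9.40 at day 10, 4.40, 3.79, 4.65 and 4.20 at day 12, and 1.56, 1.90, 1.88 and 1.68 at day 14. From day 3 on, each day lay below the day before it without overlap. Against day 0, Hdc rose by 4.61 ± 0.18 on the log2 scale at day 3, a 24.5-fold higher level (adjusted p = 5.51e-18, edgeR), by 3.92 ± 0.18 at day 5, 2.53 ± 0.17 at day 7 and 1.11 ± 0.17 at day 10. At day 14 it fell by 1.41 ± 0.19 (adjusted p = 2.31e-07, edgeR). These sizes depended on the day 0 libraries: the differences at days 3, 5, 7, 10 and 14 were 5.24, 4.55, 3.15, 1.74 and -0.78 without libraries 1 and 4, and 4.22, 3.50, 2.09, 0.67 and -1.77 without libraries 2 and 3. On day 12 it overlapped day 0 (-0.15 ± 0.17, adjusted p = 0.513, edgeR). The direction there depended on the day 0 libraries: 0.48 without libraries 1 and 4 and -0.57 without libraries 2 and 3, both past the threshold of 0.05 in edgeR.

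Neutrophil markers moved with Hdc. All 8 of the list (S100a8, S100a9, Csf3r, Cxcr2, Ly6g, Retnlg, Mmp8 and Ngp) were called higher than day 0 at days 3, 5, 7 and 10, where 31.8%, 29%, 25.6% and 23.5% of all genes were, with a median log2 difference of 7.81 at day 3 (8.54 without libraries 1 and 4 of day 0). All 8 were called on these days without either pair. Their summed CPM ranged from 16.4 to 42.7 at day 0, 4372 to 5517 at day 3, 1591 to 2002 at day 5, 541 to 955 at day 7, 223 to 247 at day 10, 20.3 to 23.2 at day 12 and 15.2 to 18.6 at day 14. Within day 0, libraries 1 and 4 had the higher neutrophil sums (42.7 and 38.1 CPM, against 16.4 and 17.0) and the higher Hdc (13.4 and 18.0 CPM, against 6.65 and 8.37), while they had the lower Cpa3 (94.5 and 80.7 CPM, against 142 and 135). All 6 macrophage markers were also higher at days 3 and 5. The part of these cells in the level of Hdc was not tested.

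**Figure D3:**
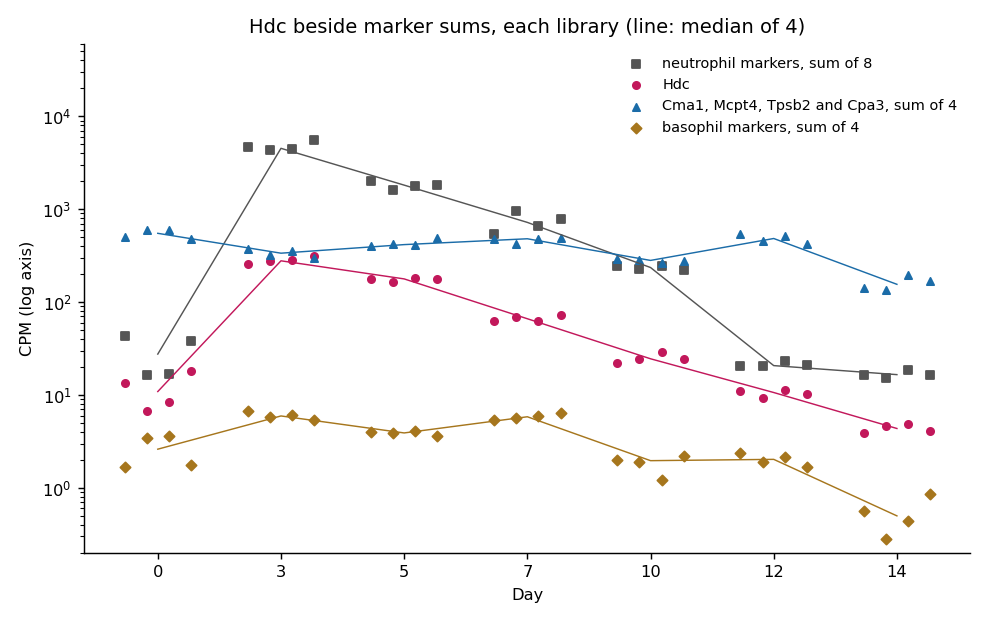
CPM, scaled to library total and TMM factor, on a log axis by day for Hdc, for the sum of 8 neutrophil markers, for the sum of the 4 protease genes and for the sum of 4 basophil markers; each point is a library and lines join the medians of 4, with days spaced evenly. Hdc and the neutrophil sum peak at day 3 and decline together to day 14, while the protease sum stays between 133 and 599 CPM.

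Against day 0 the counts over the 7 genes were as follows, with all comparisons sharing the 4 day 0 libraries. On day 3, 2 genes were higher (Fcer1a and Hdc) and 5 lower (the proteases and Ms4a2), while 31.8% of all genes tested were higher and 34.8% lower; without libraries 2 and 3 of day 0 only 3 were lower, since Cpa3 and Ms4a2 did not pass. On day 5, 2 were higher and 2 lower (Mcpt4 and Ms4a2), against 29% and 30.6% of all genes, and at day 7, 2 were higher and 1 lower (Mcpt4), against 25.6% and 24.8%. Cpa3 joined the lower genes of days 5 and 7 without libraries 1 and 4 of day 0 and the higher ones without libraries 2 and 3, where Ms4a2 was not called at day 5. On day 10 the split was again 2 higher and 5 lower, where the background was 23.5% and 26.9%. On day 12 only Fcer1a passed the test, with 21.7% of all genes higher and 25.6% lower; 5 passed it without libraries 1 and 4 of day 0, 4 without libraries 2 and 3, and 3 without library 1 of day 12. On day 14 Fcer1a did not pass the test and 6 genes were lower, with 34.5% of all genes lower, and the median log2 difference of the 7 was -1.51 against -0.06 over all genes tested.

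By the study's own criteria (a log2 fold change over 1.5 and an unadjusted p under 0.05) Fcer1a and Hdc were higher at days 3, 5 and 7, where 6.5%, 5.61% and 4.66% of all genes were, and Fcer1a at day 12 (3.89% of all genes). On day 14, 4 members were lower by these criteria (Cma1, Mcpt4, Tpsb2 and Cpa3), as were 8.83% of all genes, and Ms4a2 and Hdc, at -1.49 and -1.41, stayed short of the fold limit.

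The steps between neighbouring days do not compare with day 0, but its libraries were in the same fit and share its estimate of the spread. From day 3 to day 5, 4 genes rose (Cma1, Tpsb2, Cpa3 and Fcer1a, by 0.48 to 0.72 on the log2 scale) and Hdc fell by 0.69, while 12.9% of all genes rose and 11.4% fell. From day 5 to day 7, Fcer1a and Hdc fell and the other 5 did not pass the test, with 13.9% of all genes rising and 14.6% falling. The call of Fcer1a was lost without library 2 of day 5 (adjusted p = 0.0621 in edgeR). Mcpt4 (0.27) and Ms4a2 (0.40) passed when the day 0 libraries were left out of the fit. Mcpt4 also passed in edgeR with upper quartile factors (0.32, adjusted p = 0.0422) and with total counts alone (0.31, adjusted p = 0.0328). It passed as well without library 4 of day 5 (adjusted p = 0.0288) or library 2 of day 7 (adjusted p = 0.046). From day 7 to day 10 all 7 fell, by 0.59 (Cma1) to 1.48 (Fcer1a), where 18% of all genes fell. The libraries of none of the 7 overlapped, as for 20.1% of all genes in that direction. From day 10 to day 12, 6 rose, from 0.48 for Cma1 to 1.10 for Cpa3, and Hdc fell by 1.26, while 18.7% of all genes rose and 20.7% fell. Again none of the 7 overlapped, as for 22.3% of all genes upwards and 23.5% downwards. From day 12 to day 14 all 7 fell, by 1.26 (Hdc) to 2.08 (Cpa3), where 25.3% of all genes fell and 2.78% fell by the study's criteria, as did 5 of the 7. None of the 7 overlapped at this step either, and 26% of all genes were lower without overlap.

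Markers of other cell types moved at the same steps, in both directions. All 4 skeletal muscle markers rose from day 7 to day 10 (median log2 difference 0.95), when the 7 genes fell, and fell from day 10 to day 12 (median -0.45). Of all genes, 14.3% rose at the first of these steps and 20.7% fell at the other. The muscle markers had sums of 3452 to 3737 CPM at day 7, 6507 to 8351 at day 10 and 4793 to 5385 at day 12. Hair follicle markers summed to 722 to 988 CPM at day 7, 216 to 249.9 at day 10, 3094 to 4159 at day 12 and 2803 to 3757 at day 14. Melanocyte markers summed to 42.6 to 46.2 CPM at day 7 and 701 to 863 at day 14. Dermal fibroblast markers summed to 25985 to 30393 CPM at day 12 and 10290.4 to 12597 at day 14, and macrophage markers to 1896 to 2114 and 862 to 924 CPM. In bulk tissue, fewer cells of a type and less RNA per cell cannot be told apart, and the part of these shifts in the levels of the mast cell genes was not tested.

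The count of each gene divided by the Cpa3 count of the same library does not depend on how libraries are scaled, a measure chosen after the data were seen. For Fcer1a the log2 ratio ranged from -7.82 to -6.76 at day 0, -4.49 to -3.89 at day 3, -4.05 to -3.76 at day 5, -5.44 to -4.90 at day 12 and -5.51 to -4.86 at day 14. It was above day 0 in every library of all 6 later days, by 1.98 to 3.22 on the log2 scale. The exact two-sided permutation p was 0.0286, the smallest that 4 against 4 libraries allow. It was 0.0686 after adjustment over the 36 ratios tested, so none passed 0.05. At day 14 the ratio of Fcer1a to Cpa3 was 2.00 above day 0, while the level of Fcer1a was not called (-0.12, adjusted p = 0.594 in edgeR). Cpa3 itself was 2.13 lower on that day, and the median of all genes tested was at -0.06. A gene at an unchanged level would therefore also stand above its day 0 ratio to Cpa3. The ratio of Hdc was above day 0 by 5.24, 4.07, 2.71 and 2.32 at days 3, 5, 7 and 10, without overlap, and overlapped it at days 12 and 14.

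Among the proteases the ratios moved less. Tpsb2 to Cpa3 overlapped day 0 on all 6 days, with differences between -0.08 and 0.26. Cma1 to Cpa3 was above day 0 without overlap at day 10 (0.45) and day 14 (0.58), the 2 days on which Cpa3 had fallen most. Mcpt4 to Cpa3 lay below day 0 without overlap at day 5 (-0.65), as did Ms4a2 to Cpa3 (-0.45), which was above it at day 14 (0.60). These separations remained with each single library left out.

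**Figure D4:**
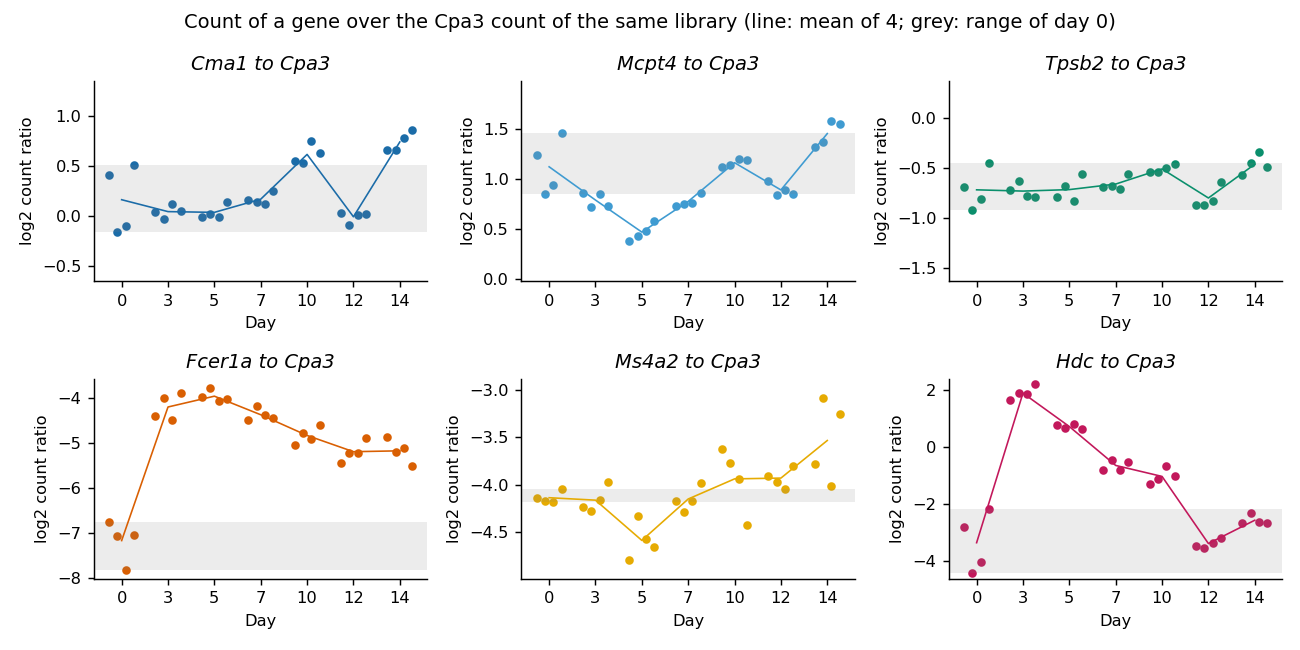
Log2 of a gene's count over the Cpa3 count in the same library, by day; points are libraries, lines join the means of 4 and the grey band is the range of day 0, with days spaced evenly and the scale of each panel its own. Fcer1a lies above the band on all later days, Hdc lies above it up to day 10, and Tpsb2 overlaps it on every day. At day 14 the mean ratio of Fcer1a is 2.00 above that of day 0, with Cpa3 itself 2.13 lower.

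Library-to-library variation gave a second view of which genes go together. The deviations of log2 CPM from the day mean were correlated over the 28 libraries for the 21 pairs of genes, with 100000 permutations within days and adjustment over the pairs. All 6 pairs among Cma1, Mcpt4, Tpsb2 and Cpa3 passed, and no other pair did. The share of pairs of other genes that would pass was not computed, so this count describes these 21 pairs only. Pearson's r was 0.94 for Cma1 and Mcpt4, the chymase locus pair (Spearman's rho 0.93, permutation p = 1e-05 for both, the smallest these permutations can give, adjusted p = 4.2e-05), and 0.92 without the 2 libraries farthest from the median. The other 5 pairs had r between 0.63 (Cma1 and Cpa3, rho 0.76) and 0.84 (Mcpt4 and Tpsb2, rho 0.83), with adjusted permutation p of 0.000245 or less and r between 0.57 and 0.83 without the farthest 2 libraries. Over the 24 libraries of days 3 to 14 the 6 pairs had r between 0.82 and 0.97.

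The pair Cpa3 and Hdc had r = -0.76 (permutation p = 0.0348, adjusted p = 0.104) and rho = -0.47 (permutation p = 0.0871), and r was -0.49 without the farthest 2 libraries and -0.17 without day 0, so this relation rested at day 0. Ms4a2 had r between 0.22 and 0.49 with the proteases (adjusted permutation p of 0.162 or more). For Fcer1a, r lay between -0.04 and 0.20 with the proteases and was -0.21 with Ms4a2, its partner in the receptor.

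**Figure D5:**
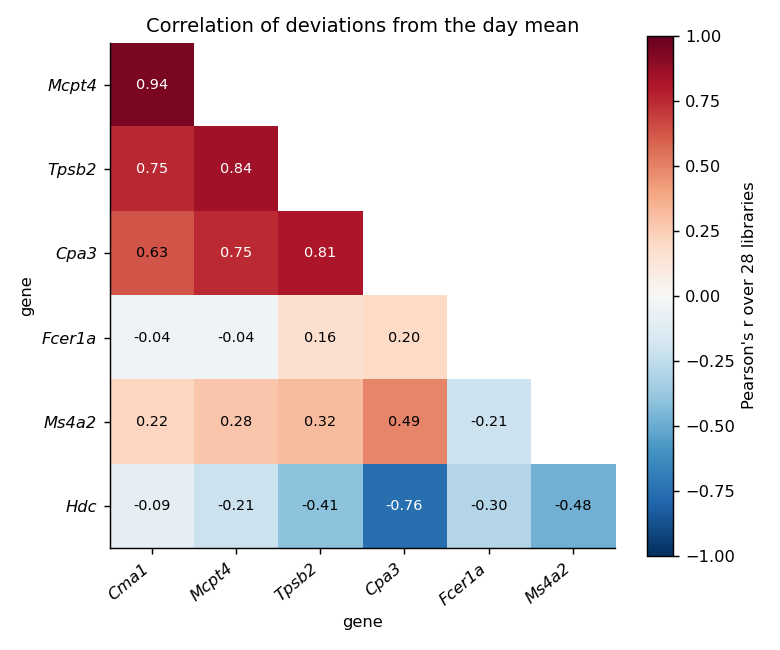
Pearson's r, as colour and number, between the deviations of 2 genes' log2 CPM from the mean of their day, over 28 libraries. The 6 pairs among Cma1, Mcpt4, Tpsb2 and Cpa3 range from 0.63 to 0.94, and those with Fcer1a from -0.30 to 0.20.

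The other genes of mast cell biology are given by list, for day 14, the day with most of the 7 called lower. The 2 genes with the highest and the 2 with the lowest log2 difference of each list are named by rule (all 3 of the proteases). Mrgprb1, Mrgprb2, Lyn, Syk, Slc18a2, Gata2 and Il33, and values at days other than 14, were chosen after their values were seen. Of the other granule proteases, 6 of 7 were in the table and 3 were tested. Tpsg1 (a membrane-anchored tryptase) fell by 1.95 ± 0.23 on the log2 scale (adjusted p = 2.57e-08, edgeR), Ctsg (cathepsin G) by 1.43 ± 0.55 on 2 to 37 counts a library (not called without either pair of day 0 libraries), and Cma2 was at -0.09 ± 0.61. Mcpt1 and Mcpt2, the chymase-family genes of mucosal mast cells, had at most 6 and 9 counts in any library and Mcpt9 at most 1. Tpsg1 had its dip at day 3 already, with a mean of 3.77 FPKM at day 0 and 1.05 at day 3.

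Of 8 surface receptors, 7 were lower and 1 higher at day 14, against 34.5% and 28.2% of all genes (median log2 difference -1.90, against -0.06 over all genes). Il1rl1, the receptor of interleukin 33, was higher than day 0 at days 3 to 10, by 1.59 at day 5, and fell by 2.62 ± 0.10 at day 14. Adora3, an adenosine receptor, fell by 2.80 ± 0.30 at day 14 (by 2.17 without libraries 2 and 3 of day 0), and Csf2rb, the shared beta chain of cytokine receptors, by 0.60 ± 0.07. Kit went the other way, 0.73 ± 0.08 higher (adjusted p = 1.17e-08, edgeR), with a mean of 4.54 FPKM at day 0 and 8.23 at day 14. Melanocytes also use Kit. All 5 melanocyte markers were higher at day 14, against 28.2% of all genes (median log2 difference 4.00, and 5.00 without libraries 1 and 4 of day 0). The part of melanocytes in the level of Kit was not tested. Mrgprb2, the mast cell receptor for basic secretagogues, had means of 3.39 FPKM at day 0, 0.96 at day 3, 1.61 at day 5, 2.26 at day 7, 1.96 at day 10, 3.69 at day 12 and 0.91 at day 14. It was called lower than day 0 at all of these days but day 12, and its step from day 7 to day 10 did not pass the test (-0.26, adjusted p = 0.249 in edgeR). Mrgprb1, its neighbour in the family, had 2.95, 1.76, 2.32, 3.01, 1.46, 3.48 and 0.89 FPKM on the same days.

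Of 12 genes of IgE receptor signalling, 10 were lower at day 14 (9 without libraries 1 and 4 of day 0) and none higher, against 34.5% and 28.2% of all genes. At day 3, 8 were higher, against 31.8% of all genes, when Lyn and Syk, the kinases that start the signal and that other leukocytes share, were 1.93 and 2.01 above day 0. On day 14, Rasgrp4, a Ras activator of mast cells, fell by 2.24 ± 0.15 and Grap2, an adaptor, by 1.66 ± 0.16, while Plcg1 (0.10) and Lat (-0.22) did not pass the test. Of 9 genes of granule contents and mediator synthesis, 8 were lower at day 14 (34.5% of all genes were). Alox5, which starts leukotriene synthesis, fell by 2.77 ± 0.18 (by 2.18 without libraries 2 and 3 of day 0), Ptgs1, a prostaglandin synthase, by 2.08 ± 0.07 and Ndst2, which sulfates heparin, by 0.47 ± 0.07, and Ltc4s was at 0.00. Slc18a2, the transporter that loads histamine into granules, did not follow Hdc at day 3: it fell by 1.20, from a mean of 0.92 FPKM at day 0 to 0.39, and stood at 1.06 at day 12.

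All 7 transcription factors of the list were lower at day 14, as were 34.5% of all genes (median log2 difference -1.32). Gata1 fell by 1.87 ± 0.46, Lyl1 by 1.69 ± 0.10, Mitf by 0.30 ± 0.08 and Stat5a by 0.17 ± 0.06, and Gata2, the main GATA factor of mast cells, by 1.45, being lower than day 0 on all 6 days. Without libraries 2 and 3 of day 0 only 4 of the 7 were lower at day 14, with Gata1 at -1.25 (adjusted p = 0.0592, edgeR), Mitf at 0.025 and Stat5a at -0.12 not called, and Stat5a was not called without libraries 1 and 4 either. Of the growth and activating ligands, 5 of 8 were tested. Kitl, the ligand of KIT, was 0.32 ± 0.08 higher at day 14, and Tslp (-2.48 ± 0.28) and Il13 (-1.47 ± 0.61, on 1 to 18 counts) were lower. Without libraries 2 and 3 of day 0 Tslp was at -1.54 and Il13 was not called (-0.38). Il33, an alarmin of epithelium and stroma, rose by 2.82 at day 3, when its mean was 99.2 FPKM against 14.6 at day 0. Of the histamine receptors and breakdown enzymes, 4 of 6 were tested and all 4 were lower at day 14, where 34.5% of all genes were: Hrh4 by 2.65 ± 0.47, Hrh1 by 2.15 ± 0.25, Hrh2 by 0.66 ± 0.25 and Hnmt, which methylates histamine, by 0.37 ± 0.11. Hrh2 alone of these 4 was called higher at day 3, by 3.23, while Hrh1 was called lower by 0.94. Without libraries 2 and 3 of day 0 only 2 of the 4 were lower at day 14, Hrh4 at -1.64 and Hrh1, while Hrh2 (-0.37) and Hnmt (-0.14) were not called, nor was Hrh1 at day 3 (-0.39).

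Among the 10 genes whose pattern over the 28 libraries was nearest to the mean standardised profile of the 7 were Spink5, Ly6m, Tmprss4, Klf3, Srgap2, Mapre2, Gpr34, Mrgprb1 and Agpat4, with Pearson's r between 0.94 and 0.92 among 15523 candidates, as a description without a test. That mean mixes unlike courses, so each gene's own neighbours were also listed, a choice made after the data were seen. Mrgprb1 was among the 5 nearest of Cma1, Tpsb2, Cpa3 and Ms4a2 (r = 0.91, 0.93, 0.96 and 0.91). The nearest to Mcpt4 was Fndc9 (r = 0.97), and Cpa3 had Spink5 (0.96). Hdc had Csf3r (0.99), Ncf4, Cxcr2 and Cd14 among its 5 nearest, and Fcer1a had Kctd11 (0.93), Washc4, Snx4, Gna12 and Pgm2. No gene stood among the 5 nearest of both Fcer1a and any other of the 7. The libraries of a day share their time point, so these r values mostly reflect the course over 7 days.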

How the data were processed

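Total RNA of 28 wound-site samples was extracted with TRIzol, made into libraries with the VAHTS Universal V6 kit and sequenced. The deposited values are raw counts for each gene and FPKM. Dividing counts by a fixed length for the gene and by the library total gives the deposited FPKM. The submitters' processing notes name fastp, R 3.2.0 and the build mm10; the aligner, the counting tool, the annotation and the use of strand are not given in the sources used here. Groups were the days in the labels. The design text mentions more repeats a day than the 4 libraries analysed here.

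Counts were tested with the quasi-likelihood test of edgeR 4.0.16 in R 4.3.3 (TMM factors, filterByExpr, all 28 libraries, 21 residual degrees of freedom, Benjamini-Hochberg over 18107 genes, threshold 0.05), checked first on simulated counts. Exact two-sided permutation tests used log2 CPM with a prior count of 2. Totals of 36706513 to 40655764 counts a library leave counting error small for the proteases and Hdc; Fcer1a (22 to 294 counts) and Ms4a2 (74 to 341 counts) rest on few. CPM were scaled with the TMM factor. Other settings covered scaling, low-count filters, DESeq2 1.42.0, limma 3.58.1 on log2 FPKM, a block for the replicate number, Xist expression as a covariate and each library left out. Replicate libraries differed by more than sampling noise. No authors' comparison columns were used. The members, gene lists and comparisons were chosen with earlier results of these data known; the ratio to Cpa3, the neighbours of single genes, the motifs, the fits without day 0 and those without pairs of day 0 libraries were added after the data were seen. Genes of the lists were named as the 2 highest and 2 lowest log2 differences at day 14. A few genes that the naming rules select are not reported here. Promoters are from RefSeq (GRCm38.p6), with 6 of the 7 genes matched.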

Additional observations from a re-analysis of the deposited data

Results flagged for a closer look

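In 4 of the 49 sets of 4 libraries (7 genes on 7 days) 1 library lay far from the other 3, by the gap to its neighbour as a share of the whole range; chance alone gives about 1 in 20 sets, or 2.45 of 49. Cma1 had a log2 CPM of 6.84 in library 4 of day 0, below the other 3, and 6.99 in library 4 of day 5, above the other 3. Cpa3 had a log2 CPM of 6.85 in library 4 of day 5, also above the others. Ms4a2 had a log2 CPM of 1.97 in library 2 of day 3, below the others.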

How the results depend on the processing

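The calls of the 7 genes against day 0 kept their direction and their side of the threshold under every other scaling, filter and tool tried with all libraries in the fit, and every call was of the same sign when single libraries were left out. By the study's criteria fewer of the 7 were called: 2 at days 3 and 5, 0 at day 10, and 0 for the steps from day 3 to 5, 5 to 7, 7 to 10 and 10 to 12, and over all genes 3420 in place of 12064 at day 3 and 646 in place of 8180 from day 12 to 14. From day 5 to 7, where 2 were called, limma on log2(FPKM + 1) with a mean FPKM of at least 1 gave 4, limma on log2(FPKM + 0.1) 1, edgeR on the 8 libraries 4, and edgeR without the day 0 libraries 4. Differences that did not pass the test turned sign at day 12 for Tpsb2 (0.034 with total counts alone, 0.044, 0.044 and 0.045 in the 3 limma fits), Cpa3 (0.091 with total counts, 0.12, 0.12 and 0.13 in limma) and Hdc (0.061, 0.061 and 0.092 in limma), at day 14 for Fcer1a (0.0026 with total counts, 0.0069, 0.0069 and 0.024 in limma), and from day 5 to 7 for Tpsb2 (-0.0024 with DESeq2 size factors, -0.0022 in DESeq2) and Cpa3 (0.014 with upper quartile factors, 0.0085 with total counts, 0.0069 in limma). Total counts alone moved the median of all genes at day 12 from -0.037 to 0.107.

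Without libraries 1 and 4 of day 0, 5 genes were called at day 12, and Ms4a2 (-0.093) and Hdc (0.48) turned sign there. Without libraries 2 and 3, 4 were called at day 12, and the sign turned for Tpsb2 (0.17, 0.17 and 0.10 at days 5, 7 and 12), Cpa3 (0.30, 0.25 and 0.33), Ms4a2 at day 7 (0.20) and Fcer1a at day 14 (0.036). Leaving out 1 library gave 3 to 5 calls at day 5 (Ms4a2 lost without library 2 of day 0 or library 1 of day 5, Cma1 gained without library 4 of day 5), 1 to 3 at day 12 (3 without library 1 of day 12) and 1 to 3 from day 5 to 7. It gave differences against day 0 of -0.14 to 0.023 (day 5), -0.091 to 0.043 (day 7) for Tpsb2, -0.20 to 0.042 (day 5), -0.25 to 0.014 (day 7) and -0.17 to 0.082 (day 12) for Cpa3, -0.22 to 0.0036 for Ms4a2 (day 7), -0.34 to 0.16 for Hdc (day 12) and -0.21 to 0.11 for Fcer1a (day 14). For single steps it gave -0.014 to 0.15 for Ms4a2 (day 3 to 5), and -0.052 to 0.11 for Tpsb2 and -0.071 to 0.014 for Cpa3 (day 5 to 7). Without day 0 the correlations of Hdc with Cma1 (0.094) and Mcpt4 (0.037) turned sign, and with total counts alone that of Hdc with Cpa3 passed (-0.79, adjusted permutation p = 0.0481). The cause of these changes was not tested.

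Same-numbered libraries of different days did not deviate together (mean r 0.00064 over 84 pairs, and 8 of 28 libraries correlated best with their own number). With the replicate number as a block, the same number of the 7 genes was called in every comparison as without it: 7, 4, 3, 7, 1 and 6 at days 3, 5, 7, 10, 12 and 14.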
